A study of Macaca mulatta with 24 samples.

Results

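The lipocalins LCN15 (gene ID 721696) and LCN2 (gene ID 697208) were followed in the ileum of rhesus macaques after total-body irradiation (TBI). All probes that carried either symbol were taken, which gave 1 probe for LCN15 and 2 for LCN2, 3 of 43603 probes that are not controls, and 2 of 16161 named genes. Both genes had been picked with their differences from the controls and between days 4 and later already known, so those values are described without a test. A single-color Agilent Rhesus Macaque array was hybridized with total RNA from a segment of whole ileum of each of 24 animals. The unirradiated control group held 4 animals, whose labels give day 4. The irradiated animals received cobalt-60 gamma rays at 6.7 Gy or 7.4 Gy and were sampled on day 4 (n = 4 per dose), day 7 (n = 4 per dose) or day 12 (n = 2 per dose). The animals were young adult males, and the same 4 controls served every day.

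Lipocalins are small secreted proteins with a barrel-shaped pocket that carries hydrophobic ligands. LCN2, also called neutrophil gelatinase-associated lipocalin, binds bacterial siderophores and so withholds iron from microbes, and it is made by neutrophils and by gut epithelium under inflammatory stimuli such as interleukin 17, interleukin 22 and interleukin 1. LCN15 is a less studied member of the same family, named for its sequence, and its ligand is not known with certainty. The ileal crypt is rebuilt from dividing stem cells, which radiation is known to deplete. In bulk RNA, fewer cells of a type and less RNA per cell cannot be told apart.

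Values are the log2 processed signal minus the 75th percentile of each array, so that 0 is the level of a bright probe and each unit is a 2-fold step. Between 72.7% and 88.1% of probes were well above background on an array, no spot was saturated, and the 75th percentile lay between 837.3 and 1330 intensity units. The limma fit over 36108 tested probes placed a median change of all genes between -0.07 and 0.05 against control. Markers of the labelled tissue had bright probes, but no other tissue was set beside it, so that this does not test the label. FABP6, the bile acid binding protein of the ileal enterocyte, had the brightest probe of the enterocyte list, with group means between 8.06 and 9.06. DEFA6, a Paneth cell defensin, had group means between 7.60 and 8.25. Array position on the slide followed the groups, with all controls in position 1, all 7.4-Gy day 4 arrays in position 2, all day 7 arrays in positions 3 and 4 and all day 12 arrays in position 4. No group but 6.7 Gy day 4, with 2 arrays in position 1 and 2 in position 2, shared a position with the controls. Position and group cannot be told apart for days 7 and 12 against control, and for 7.4 Gy on day 4 they are separated only through the 6.7-Gy day 4 arrays.

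LCN15 was near background in the controls. Their levels were -6.21, -6.04, -5.51 and -5.12, equal to background-subtracted intensities between 13.3 and 34.3, and 3 of the 4 arrays were well above background. In the 6.7-Gy animals of day 4 the levels were -1.16, -1.04, 1.23 and 1.28. In the 7.4-Gy animals of day 4 they were 0.90, 1.02, 1.64 and 1.96. Every irradiated animal of day 4 was at least 3.96 above the highest control, and the 6.7-Gy animals formed a low and a high pair while the 7.4-Gy animals lay close together.

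On day 7 the LCN15 levels were -2.94, -2.36, -1.79 and -1.70 after 6.7 Gy. After 7.4 Gy they were -3.34, -3.13, -2.80 and -1.07, with replicate 2 above the other 3. All 8 animals were above every control. They were also below every day 4 animal of their dose, and in that comparison alone 4.57% of all genes lay wholly below at 6.7 Gy and 7.6% at 7.4 Gy. On day 12 the levels were -4.39 and -3.99 after 6.7 Gy, both above the controls, and -5.33 and -4.38 after 7.4 Gy, of which the first lay inside the control range.

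**Figure D1:**
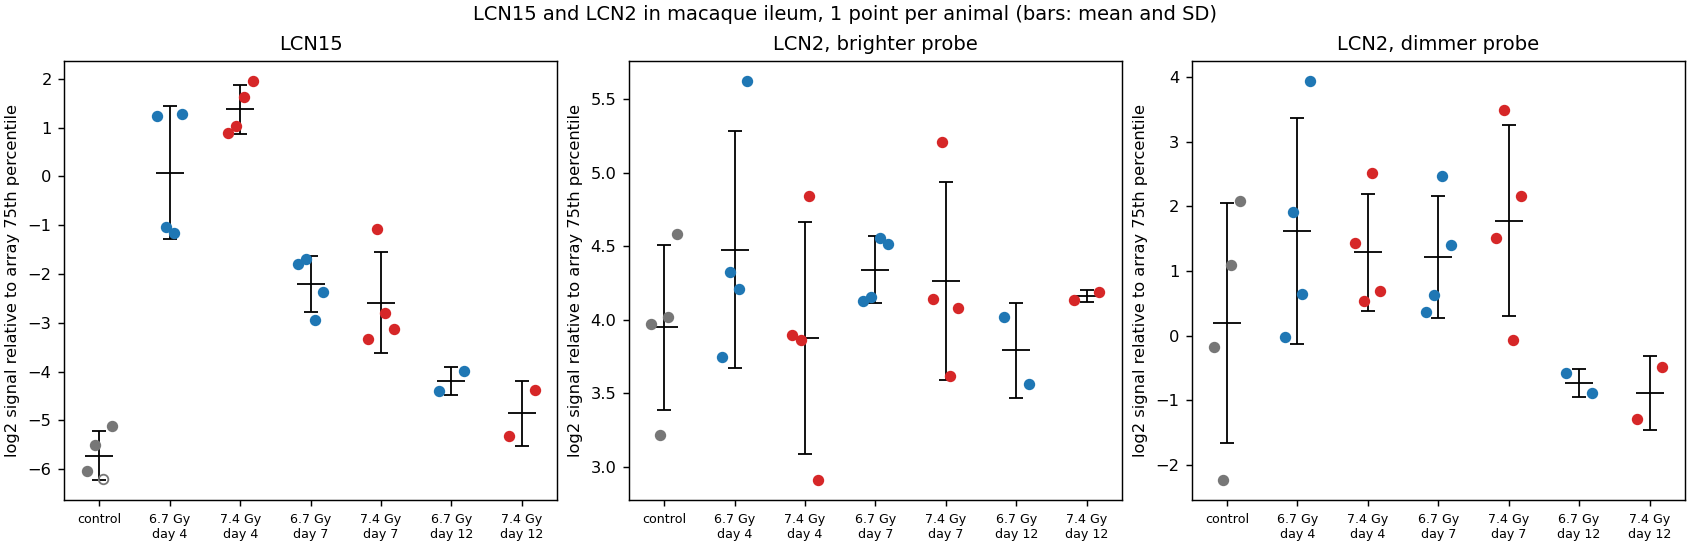
Log2 signal relative to the 75th percentile of the array (vertical axis) for LCN15 and both LCN2 probes in the control group and 6 irradiated groups, with 1 point for each animal, an open point where the signal was not well above background, and bars for the mean and SD. LCN15 has a mean of -5.72 in the controls and of 0.08 and 1.38 on day 4, and lies closer to the controls on day 12, while the LCN2 points of irradiated and control animals overlap.

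The group means of LCN15 were -5.72 ± 0.50 (SD, n = 4) in the controls, 0.08 ± 1.36 (n = 4) and 1.38 ± 0.50 (n = 4) on day 4, -2.20 ± 0.57 (n = 4) and -2.59 ± 1.03 (n = 4) on day 7, and -4.19 ± 0.28 (n = 2) and -4.86 ± 0.67 (n = 2) on day 12, in each case with 6.7 Gy before 7.4 Gy. The differences from control were 5.80 (SE 0.55, 55.6-fold) and 7.10 (SE 0.55, 137.0-fold) on day 4. They were 3.52 (SE 0.55) and 3.13 (SE 0.55) on day 7, and 1.53 (SE 0.67) and 0.86 (SE 0.67) on day 12. Among 14179 genes with a tested probe, the LCN15 difference ranked 1 on day 4 at both doses, 3 and 2 on day 7 at 6.7 and 7.4 Gy, and 49 and 211 on day 12. Groups did not overlap with control in 5 of the 6 comparisons; the share of all genes that lay wholly above the controls was 4.44% and 9.07% on day 4, 4.73% and 3.96% on day 7, and 14.3% and 8.95% on day 12. These values chose the gene and are given as a description. As the control signals were near background, the folds and ranks are rough values.

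The control signals of LCN15 were low, and the size of its differences depended on the processing. Normexp background correction was run on the median spot signal with an offset of 50, so that the input changed as well. With it the day 4 differences were 3.65 and 4.95, the day 7 differences 1.73 and 1.45, and the day 12 differences 0.55 and 0.24. With the slide as a block the 7.4-Gy day 12 difference was 0.25. The direction and the order of the days were as in the main values. Among arrays in position 1, the 2 animals of 6.7 Gy day 4 had an LCN15 mean 5.81 above that of the 4 controls. With position as a covariate the 7.4-Gy day 4 difference was 7.13.

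The genes had not been picked for a difference between doses or between days 7 and 12, but these differences are drawn from the same group means as the known differences from control, so that their tests are not independent of the choice of genes. On day 4, LCN15 was 1.30 higher after 7.4 Gy than after 6.7 Gy (95% interval 0.16 to 2.45, 2.47-fold, limma adjusted p = 0.88 over all probes), and the groups overlapped. The exact two-sided permutation test over these 8 animals gave p = 0.171, where 0.0286 is the smallest it allows. On day 7 the LCN15 difference was -0.39 (95% interval -1.53 to 0.75, limma adjusted p = 0.99). On day 12 it was -0.66 (95% interval -2.28 to 0.95, limma adjusted p = 0.92). No dose difference of LCN15 passed the test. Of all 14179 genes, limma called 0% between the doses at each of the first pair of days and 0.00705% at day 12. At an unadjusted limma p under 0.05 there were 800 genes for day 4, 600 for day 7 and 863 for day 12. The methods' t-test called 0 genes on each day. The LCN15 intervals allow differences of over 2-fold in the direction of the estimate on each day.

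Between day 7 and day 12, LCN15 differed by -1.99 (95% interval -3.40 to -0.59) after 6.7 Gy and by -2.27 (95% interval -3.67 to -0.87) after 7.4 Gy. Both differences were smaller in size with normexp correction, as given below under processing. Among arrays in position 4, 2 a group, the 7.4-Gy difference was -1.89. In both doses the day 12 animals lay below every day 7 animal, as did 12.4% and 9.92% of all genes. The limma adjusted p-values were 0.29 and 0.34, so that neither passed the threshold. In the same comparisons 6 and 1 of 14179 genes were called, or 0.0423% and 0.00705%. The dose difference of the step from day 4 to day 7 was -1.69 (95% interval -3.31 to -0.07, limma adjusted p = 0.99), and that of the step from day 7 to day 12 was -0.27 (95% interval -2.26 to 1.71, limma adjusted p = 0.999).

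**Figure D2:**
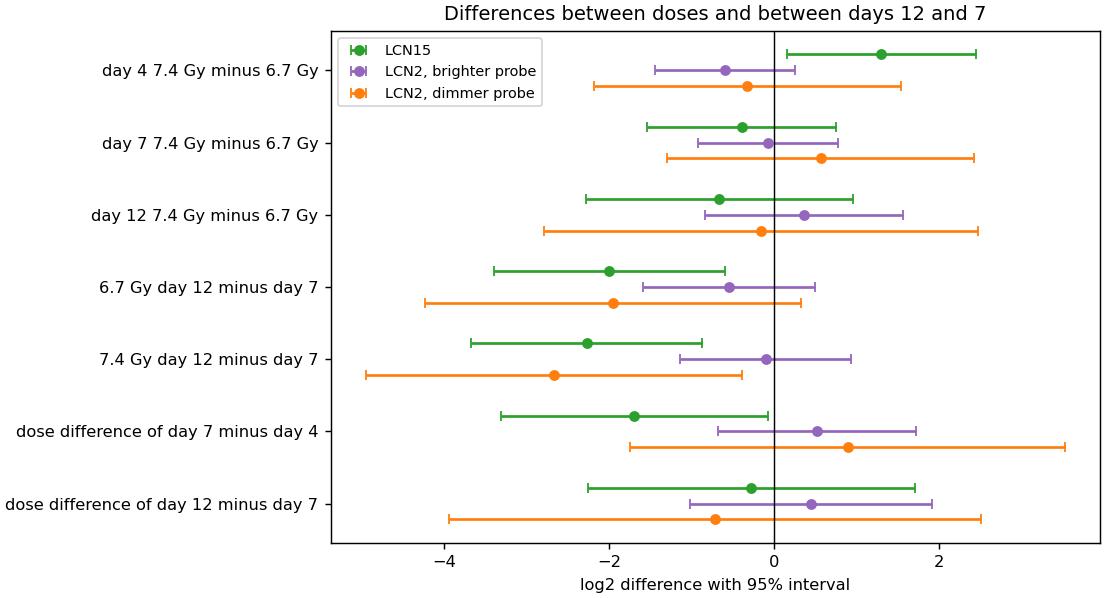
Log2 differences (horizontal axis) with 95% intervals for LCN15 and both LCN2 probes in the comparisons between doses, between days 12 and 7 and between the doses' day steps. The LCN15 intervals for day 12 minus day 7 lie wholly below 0 at both doses, from -3.40 to -0.59 and from -3.67 to -0.87. That of the dimmer LCN2 probe after 7.4 Gy, from -4.95 to -0.39, does so too, and no difference passed adjustment over all probes.

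LCN2 was bright in the ileum of unirradiated animals. The brighter of its 2 probes stood at 3.22, 3.97, 4.02 and 4.58 in the controls. On day 4 it stood at 3.74, 4.21, 4.33 and 5.62 after 6.7 Gy and at 2.91, 3.86, 3.89 and 4.84 after 7.4 Gy. The widest spread inside a group was 1.94, and the difference of largest size between day 4, day 7, day 12 and control means at a dose was -0.68, for day 12 minus day 4 after 6.7 Gy. Without the animal of the highest level, 6.7 Gy day 4 replicate 4, that difference was -0.30. At this probe the highest and lowest levels of the study were both found on day 4.

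On day 7 the brighter LCN2 probe stood at 4.13, 4.15, 4.52 and 4.56 after 6.7 Gy. After 7.4 Gy it stood at 3.62, 4.08, 4.14 and 5.21. On day 12 the levels were 3.56 and 4.02 after 6.7 Gy and 4.13 and 4.19 after 7.4 Gy. All 6 irradiated groups overlapped with the controls.

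The control mean of LCN2 was 3.95 ± 0.56 (SD, n = 4). The differences from it were 0.53 (SE 0.41) and -0.07 (SE 0.41) on day 4, 0.39 (SE 0.41) and 0.31 (SE 0.41) on day 7, and -0.16 (SE 0.50) and 0.21 (SE 0.50) on day 12, with 6.7 Gy before 7.4 Gy. In the ranking of 14179 genes these lay between rank 1046 and rank 10711. Without 6.7 Gy day 4 replicate 4 the first of these was 0.14. With array position as a covariate the 7.4-Gy day 4 difference was -0.96. The dose difference of LCN2 was -0.60 on day 4 (95% interval -1.45 to 0.25, limma adjusted p = 0.88; -0.22 without that animal), -0.08 on day 7 (95% interval -0.93 to 0.77, limma adjusted p = 0.997) and 0.37 on day 12 (95% interval -0.83 to 1.57, limma adjusted p = 0.94). Day 12 differed from day 7 by -0.55 after 6.7 Gy (limma adjusted p = 0.71) and by -0.10 after 7.4 Gy (limma adjusted p = 0.97).

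The dimmer LCN2 probe was 3.27 below the brighter one on average and far more variable. In the controls it stood at -2.23, -0.17, 1.097 and 2.08, a 19.8-fold range against 2.58-fold at the brighter probe. Its differences from control lay between 1.02 and 1.59 on days 4 and 7 (SE 0.89) and were -0.93 (SE 1.09) and -1.08 (SE 1.09) on day 12, and every irradiated group overlapped with the controls. Day 12 differed from day 7 by -1.95 after 6.7 Gy and by -2.67 after 7.4 Gy without overlap (limma adjusted p = 0.52 and 0.56), in comparisons where 12.4% and 9.92% of all genes lay wholly lower, and the brighter probe gave -0.55 and -0.10. Over the 24 arrays the 2 probes correlated with r = 0.76, and within groups, after subtraction of each group mean, with r = 0.87. Relative to their control means they differed by a median of 1.02 and by up to 2.07 in a single animal. Which probe follows the transcript more closely was not tested.

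No relation between LCN15 and LCN2 was detected within groups. Their deviations had a Pearson r of 0.26 (permutation p = 0.403, adjusted 0.59 over 3 relations) and a Spearman rho of 0.13 (permutation p = 0.628, adjusted 0.66) over 24 arrays. Without the 2 arrays farthest from the median of LCN15, 7.4 Gy day 7 replicate 2 and 6.7 Gy day 4 replicate 4, r was -0.15. The share of probes well above background, a measure of array quality, had r = -0.15 with LCN15 (permutation p = 0.591, adjusted 0.59) and rho = -0.12 (permutation p = 0.664, adjusted 0.66), and r = -0.17 without the same 2 arrays. With LCN2 it had r = -0.20 (permutation p = 0.485, adjusted 0.59) and rho = -0.26 (permutation p = 0.296, adjusted 0.66), and r = 0.03 without the 2 arrays farthest in LCN2.

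The genes most like LCN15 over the 24 arrays were ASCL2 (r = 0.92), a transcription factor of crypt stem cells, HSPA4L (r = 0.91), a heat shock protein of the HSP110 family, DDB2 (r = 0.90), a DNA damage recognition protein and p53 target, ZMAT3 (r = 0.90), an RNA-binding p53 target, GDF15 (r = 0.89), a stress cytokine, and ANKRD65 (r = 0.89), an ankyrin repeat protein. Their differences from control on day 4, at 6.7 and 7.4 Gy, were 1.40 and 1.69 for ASCL2, 2.31 and 2.52 for DDB2, 3.83 and 4.23 for GDF15 and 5.18 and 5.83 for ANKRD65, whose control signal was well above background on 1 of 4 arrays, so that its differences are rough values. HSPA4L and ZMAT3 differed by 1.52 and 1.75 at 6.7 Gy, and HSPA4L by 0.97 with normexp correction. With 1 array left out in turn, their 7.4-Gy differences lay between 1.53 and 1.71 and between 1.82 and 1.96. As these 6 genes were picked for likeness to a gene that differed most on day 4, their differences carry no test here. Once each group mean was subtracted, the likeness was smaller, with r of 0.53 for ASCL2, 0.49 for HSPA4L, 0.29 for GDF15, 0.25 for ANKRD65, 0.06 for DDB2 and -0.25 for ZMAT3. These values rest in part on 7.4 Gy day 7 replicate 2 and 6.7 Gy day 4 replicate 4, the arrays farthest in LCN15, without which r was 0.32 for ASCL2, 0.30 for HSPA4L, 0.14 for GDF15, 0.20 for ANKRD65, 0.37 for DDB2 and 0.07 for ZMAT3, so that the genes have no settled order within groups. By Spearman's rho, 2 of the 6 genes stayed in the list, HSPA4L and ANKRD65.

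**Figure D3:**
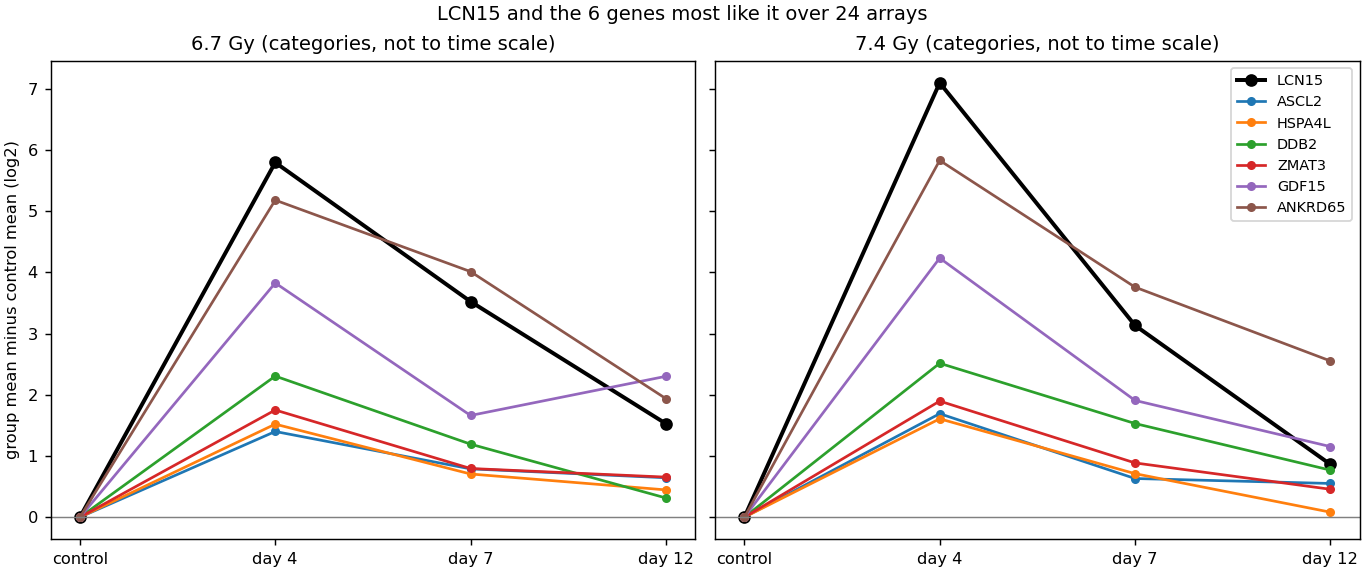
Group mean minus control mean on the log2 scale (vertical axis) for LCN15 and the 6 genes with the highest Pearson r to it over 24 arrays, with 1 panel for each dose and days as categories. All 7 genes are highest on day 4, where LCN15 reaches 5.80 and 7.10 and ANKRD65, with a control level mostly not well above background, a rough 5.18 and 5.83, and ASCL2 stays within 1.69.

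The genes most like LCN2 over the arrays were SOX9 (r = 0.79), a transcription factor of crypt and Paneth cells, PI3 (r = 0.79), the secreted protease inhibitor elafin, HMCES (r = 0.78), a DNA repair protein, PPIB (r = 0.77) and GMPPB (r = 0.76), which serve protein folding and glycosylation, and GSG2 (r = 0.75), a mitotic kinase. Within groups r was 0.82 for SOX9, 0.81 for PI3, 0.78 for HMCES, 0.76 for PPIB, 0.80 for GMPPB and 0.73 for GSG2. The LCN2 group means lay only between 3.79 and 4.48, so that these values largely follow from those over the arrays. Without 6.7 Gy day 4 replicate 4 and 7.4 Gy day 4 replicate 3, the arrays farthest in LCN2, they were 0.73, 0.68, 0.67, 0.58, 0.69 and 0.54. SOX9 differed from control by between -0.05 and 0.56. None of these 6 genes was called against control by limma, where 1 of the 36 gene comparisons had an unadjusted p under 0.05, or by the methods' t-test. Here and below, such unadjusted counts against control stand without the share of all genes, so that they cannot be read as high or low. Only PI3 stayed in the list when Spearman's rho was used.

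LCN2 varied between animals of a group together with other epithelial defence genes. Of 21 tested genes on a list of epithelial antimicrobial and acute phase genes, 20 had a positive r with LCN2 within groups and 15 had r above 0.5, with a median of 0.67. Over all 14178 genes the median was -0.03 and 9.15% had r above 0.5. The highest values belonged to DUOXA2 (r = 0.89), the maturation factor of a hydrogen peroxide producing oxidase, PIGR (r = 0.85), which carries secretory antibody across the epithelium, PI3 (r = 0.81), CXCL1 (r = 0.80), a neutrophil attractant, and DMBT1 (r = 0.78), a mucosal scavenger receptor. DUOX2, the oxidase itself, had r = 0.74 and NOS2, the inducible nitric oxide synthase, r = 0.73. The genes of an array share its piece of tissue, its scaling and its mix of cells, so these values describe and do not test.

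The animals at the ends of this pattern were few. LCN2 lay highest above its group mean in 6.7 Gy day 4 replicate 4 (1.15), 7.4 Gy day 4 replicate 3 (0.97) and 7.4 Gy day 7 replicate 2 (0.95), and lowest in 7.4 Gy day 4 replicate 4 (-0.97), 6.7 Gy day 4 replicate 1 (-0.73) and control replicate 2 (-0.73). Without the 2 farthest arrays, 6.7 Gy day 4 replicate 4 and 7.4 Gy day 4 replicate 3, r with LCN2 was 0.87 for DUOXA2, 0.82 for PIGR, 0.72 for CXCL1 and 0.76 for NOS2. It was smaller for S100A8 and S100A9, the subunits of calprotectin, at 0.24 and 0.38 where all arrays gave 0.52 and 0.60, and for REG1A (0.46 from 0.67) and CXCL8 (0.48 from 0.62). Without these 2 arrays 11 of the 21 genes had r above 0.5, and the list median was 0.54. DUOXA2 itself was well above background on 18 of 24 arrays, and in the controls it ranged from -7.05 to -0.50. Leaving out each array in turn, the list median lay between 0.51 and 0.72. The dimmer LCN2 probe gave a list median of 0.66 with the same genes.

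**Figure D4:**
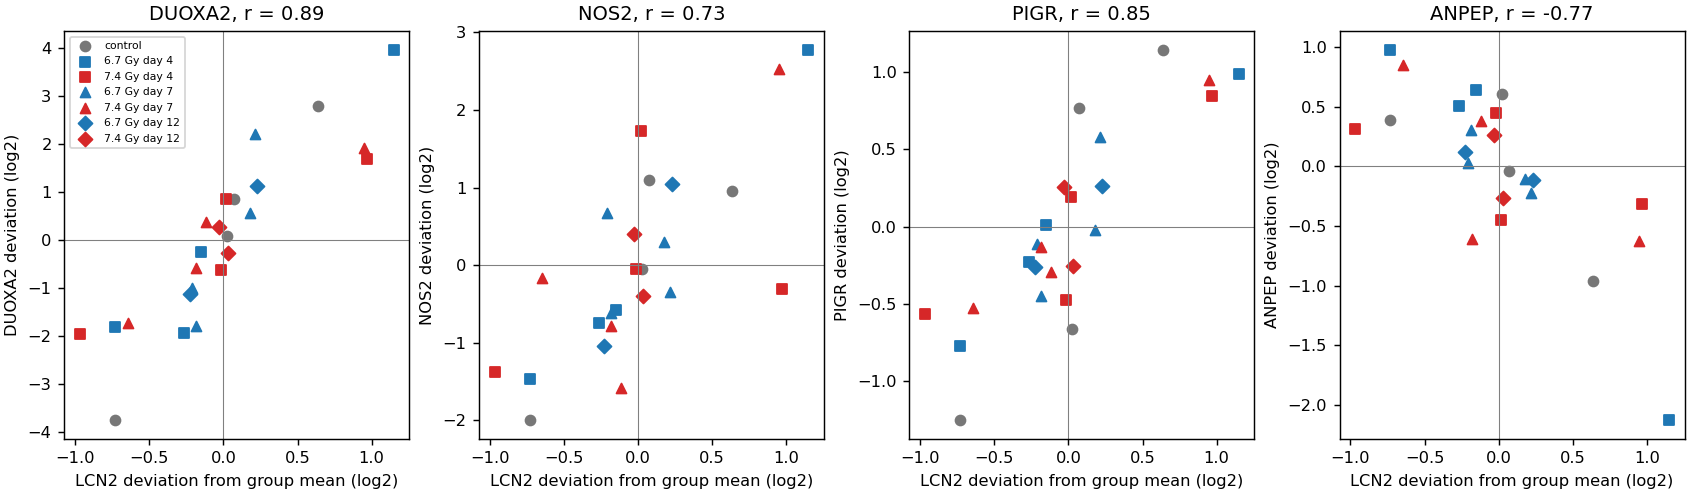
Deviation from the group mean on the log2 scale of DUOXA2, NOS2, PIGR and ANPEP (vertical axes) against that of LCN2 (horizontal axes), with 1 point for each of 24 animals and the Pearson r in the title of each panel. DUOXA2, NOS2 and PIGR rise with LCN2 (r of 0.89, 0.73 and 0.85) and ANPEP falls (r = -0.77), and 6.7 Gy day 4 replicate 4 is the point farthest to the right.

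Ileal enterocyte markers ran the other way. All 9 tested markers had a negative r with LCN2 within groups, with a median of -0.58. ANPEP, the brush border aminopeptidase, had r = -0.77, SLC51B, a subunit of the basolateral bile acid exporter, r = -0.69, and FABP6 r = -0.62. Without the 2 farthest arrays the values were -0.70, -0.66 and -0.51 and the list median was -0.49, and with each array left out in turn the list median lay between -0.66 and -0.39.

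Markers of neutrophils, the other known source of LCN2, did not show this pattern as a list. Of the 20 genes on that list 11 had a probe and 9 were tested, and S100A8 and S100A9 were counted on the antimicrobial list. Of 9 tested markers 7 had a positive r, with a median of 0.06. Of the 9, 2 were above 0.5 (22.2%, beside 9.15% of all genes), among them TCN1 (r = 0.75), a cobalamin binder. The summed level of the 9 markers, in multiples of the 75th percentile, ranged from 5.69 to 23.5 in the controls, from 5.13 to 7.90 on day 4 after 6.7 Gy and from 5.37 to 22.4 on day 4 after 7.4 Gy, and lay between 4.86 and 8.23 in the groups of days 7 and 12. PGLYRP1, a peptidoglycan recognition protein, made up between 21.6% and 88.2% of this sum. Without PGLYRP1 the sum ranged from 0.79 to 15.6 in the controls. On day 4 it ranged from 0.72 to 2.77 after 6.7 Gy and from 0.75 to 17.6 after 7.4 Gy, and it lay between 0.76 and 3.12 in later groups. None of the 9 was called against control by limma, where 6 of 54 gene comparisons had an unadjusted p under 0.05, or by the methods' t-test. The probes of MPO and MMP8, enzymes of neutrophil granules, were not well above background on every array of any group. The share of neutrophil RNA in the LCN2 signal was not tested.

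**Figure D5:**
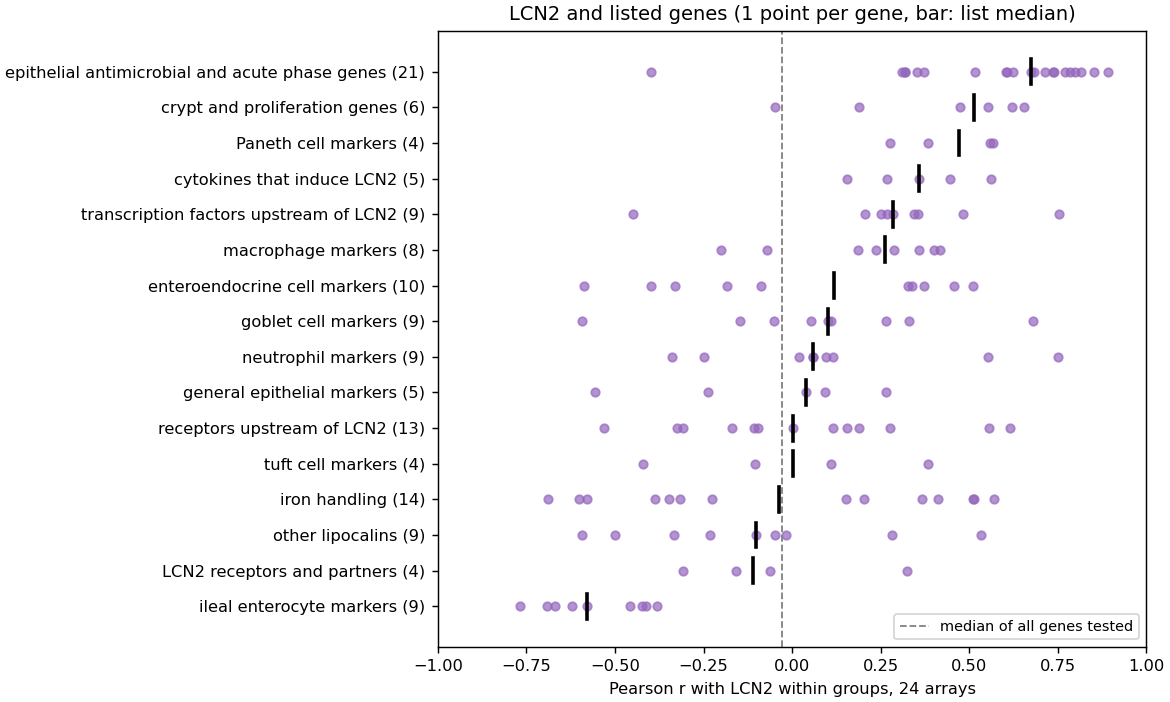
Pearson r with LCN2 within groups over 24 arrays (horizontal axis) for each tested gene of 16 lists, with 1 point for each gene, a black bar at the list median and a dashed line at the median of all genes. The epithelial antimicrobial list lies highest with a median of 0.67 and the ileal enterocyte list lowest with -0.58, and the neutrophil list sits at 0.06.

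For LCN15 the same lists gave smaller values. Within groups its median r was 0.15 with the 21 antimicrobial genes, none of them above 0.5, and -0.25 with the 9 enterocyte markers, beside -0.07 over all genes. With 6 crypt and proliferation genes the median r was 0.33 for LCN15 and 0.51 for LCN2.

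Among the other lipocalins, no gene was called by limma, where 7 of 54 gene comparisons had an unadjusted p under 0.05, or by the methods' t-test. Of 18 relatives 12 had a probe and 9 were tested: LCN1, LCN6, LCN12, OBP2B, PTGDS, PAEP, RBP4, APOD and APOM. Their 54 differences from control ran from -1.39 for LCN1 to 1.14 for PAEP, and the list median on day 4 was -0.24 after 6.7 Gy and 0.03 after 7.4 Gy, beside -0.07 and -0.05 for all genes. The background was 1.16% and 2.72% of genes called on day 4, 0.353% and 0.733% on day 7, and 0.162% and 0.0423% on day 12, at 6.7 and 7.4 Gy. The lipocalins lie in part in a cluster on the chromosome, and the RefSeq order of the T2T-MMU8v2.0 assembly was used to name neighbours. The 3 nearest tested protein-coding genes on each side of LCN15 were AJM1, RABL6, TMEM141, LCN6, AGPAT2 and EGFL7, and those of LCN2 were GOLGA2, DNM1, CIZ1, PTGES2, NAIF1 and EEIG1. None of the 12 was called against control by limma, where 2 of 36 comparisons for the neighbours of LCN15 and 8 of 36 for those of LCN2 had an unadjusted p under 0.05, or by the methods' t-test. The neighbours of LCN15 differed by between -0.55 and 0.58, and those of LCN2 by between -0.47 and 0.56.

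The receptors and partners of LCN2 had 4 tested genes of 6. SLC22A17, the cell surface receptor of LCN2, differed by 0.63 on day 4 after 6.7 Gy (limma adjusted p = 0.16) and by 0.94 after 7.4 Gy (limma adjusted p = 0.037), short of 2-fold, and without control replicate 2, 3 or 4 the second was 1.07, 1.03 or 1.01 and passed. BDH2, which makes a mammalian siderophore, fell by 1.17 on day 4 after 7.4 Gy (SE 0.28, limma adjusted p = 0.017). The call was lost without control replicate 1 (-0.93, adjusted p = 0.0685) or 7.4 Gy day 4 replicate 1 (-1.09, adjusted p = 0.0643). It was also lost with normexp correction (-0.94, under 2-fold), with array position as a covariate (-0.34, limma adjusted p = 0.78), with only the groups compared (adjusted p = 0.074) and by the methods' t-test (adjusted p = 0.147). BDH2 rose by 1.55 from day 4 to day 7 at that dose (limma adjusted p = 0.0056), where 1.06% of genes were called. MMP9, the gelatinase that LCN2 binds, differed by -0.04 and -0.17 on day 4 (limma adjusted p = 0.96 and 0.86). LRP2, the other uptake receptor, had no probe well above background on every array of a group.

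Of the cytokines known to induce LCN2, 5 of 10 were tested. None was called against control by limma, where 5 of 30 gene comparisons had an unadjusted p under 0.05, or by the methods' t-test. TNF differed by -0.17 and -0.04 on day 4 (limma adjusted p = 0.79 and 0.96), and it had r = 0.56 with LCN2 within groups, the highest of the 5 cytokines, whose median was 0.36. IL6 was higher on day 12 than on day 4, by 1.86 after 6.7 Gy (SE 0.38, limma adjusted p = 0.013) and by 1.53 after 7.4 Gy (SE 0.38, limma adjusted p = 0.031) beside 2.65% and 2.12% of genes called. Only 2 animals a group stood on day 12, and the IL6 calls were lost without either of them, to an adjusted p of 0.121 and 0.0704 at 6.7 Gy and of 0.357 and 0.0518 at 7.4 Gy. The slide as a block ended both calls (limma adjusted p = 0.0809 and 0.0902), and the replicate block ended that at 7.4 Gy (limma adjusted p = 0.0567). The 7.4-Gy call was also lost without day 4 replicate 1 (adjusted p = 0.0633) or 4 (adjusted p = 0.0607). The probes of IL17A and IL22 did not reach the detection filter. Of 13 upstream receptors 1 was called, IL1R1, the interleukin 1 receptor, which rose by 1.06 on day 4 after 7.4 Gy (SE 0.31, limma adjusted p = 0.046). This call was lost in 17 of the 24 fits that left out 1 array, at an adjusted p of up to 0.138, and under 8 other alternatives, among them position as a covariate (0.72, limma adjusted p = 0.59). None of 9 tested transcription factors was called by limma, where 9 of 54 gene comparisons had an unadjusted p under 0.05, or by the methods' t-test. NFKBIZ, the nuclear factor through which interleukins 1 and 17 reach the LCN2 promoter, differed by -0.15 and -0.18 on day 4 (limma adjusted p = 0.74 and 0.73) and had r = 0.75 with LCN2 within groups. It was the 1 factor of 9 above 0.5, beside 9.15% of all genes, and the list had a median of 0.29 and a lowest r of -0.45 for CEBPE.

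Over all 16 lists, 139 of 196 genes were tested. On day 4, 4 of them were called after 6.7 Gy (2.88%, background 1.16%) and 9 after 7.4 Gy (6.47%, background 2.72%), or 3 and 8 of the 137 genes (2.19% and 5.84%) that were not named for likeness to LCN15 or LCN2, and none on day 7 or day 12, where 9 to 23 of them had an unadjusted limma p under 0.05 in each comparison and the methods' t-test called none. VIL1, the villin of the brush border, fell by 1.32 and 1.27 on day 4 (limma adjusted p = 0.0011 and 0.00085). The goblet cell genes CLCA1 and AGR2 fell by 1.22 and 1.12 after 6.7 Gy (limma adjusted p = 0.027 and 0.041) and by 1.08 and 1.61 after 7.4 Gy (limma adjusted p = 0.028 and 0.0032). ASCL2 of the crypt list, already named for its likeness to LCN15, was the other call at both doses and carries no test here. After 7.4 Gy, CP, the ferroxidase ceruloplasmin of the iron list, rose by 1.49 (limma adjusted p = 0.016), CD14, a macrophage surface protein, by 1.14 (limma adjusted p = 0.011) and CHGB, a granule protein of enteroendocrine cells, by 1.26 (limma adjusted p = 0.0043). With 1 array left out in turn, the calls of VIL1 and CHGB, and that of AGR2 at 7.4 Gy, were made in all 24 fits. The call of AGR2 at 6.7 Gy was lost in 8 fits, and that of CLCA1 in 4 at 6.7 Gy and in 6 at 7.4 Gy. The slide as a block also ended these calls (adjusted p = 0.0917, 0.0742 and 0.0587). With position as a covariate none of the other 7.4-Gy calls named here was made, at an adjusted p of 0.112 for AGR2, 0.137 for VIL1, 0.188 for CHGB, 0.219 for CLCA1, 0.227 for CD14 and 0.498 for CP. At 6.7 Gy position ended the calls of CLCA1 (adjusted p = 0.0958) and AGR2 (adjusted p = 0.128). The methods' t-test gave VIL1 an adjusted p of 0.19 at 6.7 Gy and 0.0706 at 7.4 Gy and CHGB one of 0.0859, and with only the groups compared VIL1 at 6.7 Gy had 0.129. CP was not called without 7.4 Gy day 4 replicate 1 (1.35, adjusted p = 0.0643), nor was CD14 (0.85, adjusted p = 0.037). The methods' t-test also ended the calls of CP (adjusted p = 0.112) and CD14 (0.147) at 7.4 Gy. At 6.7 and 7.4 Gy it ended those of CLCA1 (0.206 and 0.0971), and at 6.7 Gy that of AGR2 (0.291). With only the groups compared CD14 at 7.4 Gy had an adjusted p of 0.0746, and CLCA1 and AGR2 at 6.7 Gy had 0.155 and 0.226. Quantile normalization left CLCA1 at 7.4 Gy under 2-fold (-0.94). None of 21 epithelial antimicrobial genes was called against control by limma, where 16 of 126 gene comparisons had an unadjusted p under 0.05, or by the methods' t-test. The share of all genes at that unadjusted threshold is not given, so that the count is not read as high or low.

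These marker changes were found on day 4, when LCN15 was highest. The summed level of 9 enterocyte markers ranged from 510.7 to 719.6 in the controls, from 164.6 to 548.5 on day 4 after 6.7 Gy and from 450.7 to 551.0 after 7.4 Gy. FABP6 alone made up between 61.2% and 79.1% of it in these groups. Without FABP6 the sum ranged from 106.5 to 279.3 in the controls, from 36.2 to 190.6 at 6.7 Gy and from 95.8 to 188.1 at 7.4 Gy. That of 5 general epithelial markers was 245.9 to 344.3 in the controls, 159.3 to 248.6 on day 4 after 6.7 Gy and 150.9 to 217.0 after 7.4 Gy, with between 46.7% and 75.2% of it from KRT19, a keratin. Values of other cell type lists on day 4 follow, at 6.7 and 7.4 Gy, beside a median of -0.07 and -0.05 for all genes. No list was tested as a whole, and some of the sums overlapped with the controls. Of 8 macrophage markers 6 and 8 had a positive difference (median 0.18 and 0.53, CD14 called at 7.4 Gy), and their summed level was 60.1 to 82.1 in the controls, 54.3 to 98.4 and 88.9 to 101.2. Of 6 crypt and proliferation genes 5 and 6 had a positive difference (median 0.57 and 0.48, ASCL2 called), and their sum was 8.54 to 10.3 in the controls, 8.30 to 23.2 and 9.004 to 14.0. Of 9 goblet cell markers 9 and 7 had a negative difference (median -0.39 and -0.26, CLCA1 and AGR2 called), and their sum was 466.7 to 540.8 in the controls, 225.4 to 442.0 and 374.4 to 486.5. The medians of the Paneth, enteroendocrine and tuft cell lists lay between -0.20 and 0.28. The part of these lists in the LCN15 difference was not tested.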

How the data were processed

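Total RNA from the ileum of 24 macaques, 1 array for each animal and no pooling, was labelled with 1 dye and hybridized. The deposited intensities were read per the file headers with Agilent Feature Extraction 11.0.1.1, which subtracted the background within each array and applied no scaling between arrays. The authors' normalized log2 table held log2 intensities minus the 75th percentile of the array, with each probe also centred on its median. Once the values used here were centred in the same way, the 43553 probes with 1 spot differed from that table by at most 0.0021 on the log2 scale.

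Control spots were left out, and the log2 intensity minus the 75th percentile of each array was fitted with limma 3.58.1 in R 4.3.3 with 1 mean for each of 7 groups. The fit took 36108 probes flagged well above background throughout 1 or more groups, with Benjamini-Hochberg adjustment over all of them. For each gene the brightest tested probe was used, and it was called at an adjusted p under 0.05 and at least 2-fold. Within-group relations were tested with 100000 permutations within groups in Python 3.11.15 with SciPy 1.17.1, after both procedures had been tested on simulated data. Probe symbols came from the files, updated through the accessions of 8317 probes in the RefSeq table, 2936 through a gene ID and 163 through a synonym. The build named in the file headers is not that of the RefSeq table, so that no coordinates are given.

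The members and the gene lists were chosen with earlier results of these data known. Genes were named by rule, being all probes of LCN15 and LCN2, called genes of the lipocalin, receptor, inducer and transcription factor lists with TNF, MMP9, SLC22A17, LRP2 and NFKBIZ in any case, up to 4 called genes and the brightest gene of other lists, the 6 genes most like each member and 3 neighbours on each side. The antimicrobial and enterocyte genes named for their r with LCN2, and IL6, TCN1, MPO, MMP8, IL17A and IL22, were chosen after their values were seen. Replicate numbers are those of the labels or of accession order and name animals only, and p-values rest on the spread between animals. The protocol text of the labels gives another last sampling day than the titles, which were followed. The number of arrays limits the precision. The alternatives were quantile normalization, the authors' table, normexp correction (offset 50, on the median spot signal), no scaling, 2 other filters on dim probes, trend and robust moderation, slide, array position or replicate number as a covariate, only the groups compared, the methods' t-test and leaving out each array. Differences inside 1 array position were added after seeing the data.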

Additional observations from a re-analysis of the deposited data

How the results depend on the processing

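No difference of LCN15 or LCN2 between doses, or between days 12 and 7, passed adjustment under any alternative in which it could be fitted. The LCN15 differences of day 12 minus day 7 were smallest with normexp at 7.4 Gy (-1.20) and at 6.7 Gy (-1.18), apart from fits that left out an array. LCN15 kept its direction against control wherever that difference could be fitted, which position as a covariate did not allow for days 7 and 12, and it was not tested when probes had to be well above background on all 24 arrays. With normexp correction the LCN15 differences from control were 3.65, 4.95, 1.73, 1.45, 0.55 and 0.24 (6.7 and 7.4 Gy on day 4, then day 7, then day 12), and day 12 minus day 4 was -3.10 and -4.70. The cause of these shifts and of those below was not tested.

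LCN2 differences near 0 changed sign or size. The day 7 dose difference was 0.0145 with quantile normalization, 0.0667 with the slide as a block and 0.34 with array position as a covariate. The 7.4-Gy day 12 minus day 7 difference was 0.0404 without scaling, 0.31 with position and 0.0144 with the replicate block, and position gave 0.28 for that step at 6.7 Gy and -0.96 for 7.4 Gy on day 4 against control. The day 12 dose difference of the dimmer probe was 0.0395 without scaling and 0.57 with the slide block. On day 4 after 6.7 Gy MMP9 was 0.0734 without scaling, 0.0502 with the slide block and 0.36 with position, which gave 0.63 after 7.4 Gy, and TNF after 7.4 Gy was 0.0203 without scaling. List genes called on day 4 after 6.7 Gy were 2 without scaling, with the slide block or with position, 1 with only the groups compared and 0 with the methods' t-test. After 7.4 Gy they were 1 with position and 2 with the t-test. On day 7 after 6.7 Gy 1 was called without scaling or with only the groups compared. The IL6 calls for day 12 minus day 4 were lost at both doses with the slide block, only the groups compared and the t-test, and at 7.4 Gy without scaling and with the replicate block.

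Leaving out 1 array at a time gave list counts on day 4 of 2 to 4 and 5 to 13, and on day 7 of 0 to 1 at each dose. The ranges that crossed 0 were -0.29 to 0.46 and -0.42 to 0.33 for MMP9 on day 4 at 6.7 and 7.4 Gy, -0.31 to 0.0372 for NFKBIZ at 6.7 Gy and -0.52 to 0.11 and -0.27 to 0.12 for TNF. For LCN2 they were -0.39 to 0.14 for the day 7 dose difference and -0.32 to 0.21 for 7.4-Gy day 12 minus day 7. For the dimmer probe the dose differences were -0.87 to 0.45, -0.0063 to 1.18 and -0.56 to 0.25 on days 4, 7 and 12. For the dose difference of the LCN15 step from day 7 to day 12 the range was -0.75 to 0.23.

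Same-numbered animals of different groups had a median correlation of deviations of 0.03 over 62 pairs, 16 of them above 0.1, beside -0.01 over 182 pairs with other numbers. The numbers do not pair the animals. With the replicate block LCN15 day 12 minus day 7 was -2.07 after 6.7 Gy and -2.35 after 7.4 Gy (limma adjusted p = 0.35 and 0.48), and no call of a member changed.

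Chosen after seeing the data, the median within-group r of LCN2 with the antimicrobial list was 0.67 in the authors' table, 0.67 with normexp and 0.64 with quantile normalization, and with the enterocyte list it was -0.58, -0.57 and -0.55. Without the 2 arrays farthest in LCN2 the medians were 0.54 and -0.49.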

Other observations

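Several genes outside the lists had a within-group r with LCN2 as high as the antimicrobial genes, and they are named after their values were seen. GPX2, a glutathione peroxidase of gut epithelium, had r = 0.89 over the 24 arrays and 0.84 without the 2 arrays farthest in LCN2, 6.7 Gy day 4 replicate 4 and 7.4 Gy day 4 replicate 3. NOX1, the superoxide-producing oxidase of gut epithelium, had r = 0.86 with and 0.86 without them. RNF183, a ubiquitin ligase, had r = 0.84 and 0.84, and POLR3D, a subunit of RNA polymerase III, r = 0.87 and 0.80. Among the cell type lists the median within-group r with LCN2 was 0.47 for 4 Paneth cell markers, 0.26 for 8 macrophage markers, 0.12 for 10 enteroendocrine markers, 0.10 for 9 goblet cell markers and 0.0018 for 4 tuft cell markers, beside -0.03 for all genes.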
